A study of Mus musculus with 6 samples.

Results

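Mesothelial cells were the group of barcodes with a mesothelial marker profile in single-cell libraries of mouse lung, and they numbered 734 of 38208 barcodes kept, or 1.92%. They were chosen by their UMIs (unique molecular identifiers, the counted transcript molecules). A barcode was a member if it had UMIs of at least 3 of the 6 marker genes *Msln*, *Upk3b*, *Wt1*, *Lrrn4*, *Upk1b* and *Rspo1*, of at most 2 of 5 genes of endothelium (*Egfl7*, *Tie1*, *Pecam1*, *Cldn5* and *Cdh5*), and none of the epithelial gene *Epcam*. Barcodes had been kept with at least 500 genes and at most 10% mitochondrial UMIs, from 43545 deposited barcodes.

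The study sequenced lung cells of TNF-Tg mice, which carry a human TNF transgene, and of wild-type (WT) littermates, all female, aged 8, 14 or 20 weeks. Each genotype and age gave 1 droplet library, from the lungs of 3 to 5 pooled mice, so the spread between the 3 libraries of a genotype holds differences of age and of pool together. The promoter of the transgene was not given in the sources used here. Lungs were digested and sorted for viable cells (7-AAD-) that lacked CD45 and CD326 (EpCAM), which limits the mesothelial cells seen to those that came off in the digest and passed the sort.

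The mesothelium is a single sheet of flattened epithelial-like cells of mesodermal origin that covers the lung and lines the pleural cavity. It carries keratins and a surface glycocalyx, lubricates the lung against the chest wall, and holds fibroblast-like features beside its epithelial ones. Mesothelial cells are known to respond to inflammatory cytokines, among them TNF, with chemokines and adhesion molecules that draw leukocytes into the pleural space. TNF binds the receptors encoded by *Tnfrsf1a* and *Tnfrsf1b*, and the signal passes through adaptor and kinase complexes to the NF-kB transcription factors, which switch on chemokine genes and their own inhibitors.

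The number of mesothelial cells by age was 42, 78 and 51 for WT libraries, and it was 44, 127 and 392 for TNF-Tg libraries. Values of 3 libraries are given in the order 8, 14 and 20 weeks throughout. The summed UMIs of the mesothelial cells were 812359, 1269221 and 801955 in WT and 825487, 1967770 and 7009761 in TNF-Tg. The TNF-Tg 20-week library held more mesothelial cells than the other 5 libraries together.

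Mesothelial cells were deep in every library, and depth differed between genotypes in the other barcodes. Median UMIs per mesothelial cell were 19151, 16351 and 15334 in WT and 17331, 14098 and 17198 in TNF-Tg. The other kept barcodes had medians of 4744.5, 4407 and 4504.5 UMIs in WT and of 9146.5, 9651 and 9566 in TNF-Tg.

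The TNF-Tg 20-week library stood apart from the other 5. UMIs of *Ptprc*, which encodes CD45, were found in 12.5% of its kept barcodes, against 0.202%, 0.132% and 0.187% in WT and 0.424% and 1.08% in TNF-Tg at 8 and 14 weeks. The 9 mesothelial cells with a *Ptprc* UMI were all in it, and so was a set of 189 mesothelial cells with a profile of their own, described below. Where leaving it out changed the genotype call of a gene printed with its log2 fold change, the value without it is given too. The same holds where it moved a called log2 fold change by over 1.5 times. Counts of a list without it are given for part of the lists. Barcode sequences shared between libraries were few, since 212 occurred in 2 libraries, among them those of 3 mesothelial cells, none shared with another mesothelial cell.

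The 6 marker genes chose the cells, and their levels are given as a description with no test. *Msln* encodes mesothelin, a surface glycoprotein that binds the mucin encoded by *Muc16*, and lies at chr17:25748613-25754378 on the minus strand of GRCm38. Levels are given in CPM, UMIs of a gene per 1000000 UMIs of the mesothelial cells of a library. *Msln* stood at 4477, 2365 and 2006 CPM in WT and at 2349, 1425 and 723 CPM in TNF-Tg. The highest TNF-Tg value lay within the WT range, so the genotypes overlapped. *Msln* UMIs were found in 88.6% of mesothelial cells and in 1.16% of the other kept barcodes, at the unequal depths given above.

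*Upk3b* and *Upk1b* encode uroplakins, membrane plaque proteins shared with the urothelium. *Upk3b* (chr5:136038496-136046487) stood at 2588, 2030 and 1935 CPM in WT and at 1689, 1562 and 914 CPM in TNF-Tg. *Upk1b* (chr16:38773184-38800328) stood at 937, 570 and 410 CPM in WT and at 510, 392 and 483 CPM in TNF-Tg. The *Upk3b* values of the genotypes did not overlap, whereas those of *Upk1b* did.

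*Wt1* encodes a zinc finger transcription factor of the coelomic epithelium, and *Lrrn4* a leucine-rich repeat membrane protein. *Wt1* (chr2:105126529-105173616) was at 203, 199 and 273 CPM in WT and at 270, 240 and 319 CPM in TNF-Tg, with overlap. *Lrrn4* (chr2:132868305-132880891) was at 1243, 926 and 850 CPM in WT and at 632, 510 and 363 CPM in TNF-Tg. *Rspo1* (chr4:124986430-125009099), which encodes a secreted enhancer of Wnt signals, was at 601, 538 and 439 CPM in WT and at 412, 353 and 277 CPM in TNF-Tg. For *Lrrn4* and *Rspo1* every TNF-Tg library lay below every WT library, and for *Wt1* no such order was seen.

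The endothelial genes of the rule stayed at or below 27.6 CPM in every library, that maximum being *Egfl7* in WT at 14 weeks, and 395 of the 734 cells had no UMI of any of them. All 6 marker genes were found in 507 cells (69.1%), and exactly 3 in 31 cells. At the edge of the rule, the 31 cells with 3 marker genes had 1987 CPM summed over 10 mesothelial genes that the rule did not use, *Krt19*, *Krt8*, *Krt18*, *Muc16*, *Bnc1*, *Aldh1a2*, *Gpm6a*, *Nkain4*, *Cldn15* and *Crb2*. The 102 barcodes just outside, with 2 marker genes, had 75.5 CPM, and the 734 mesothelial cells had 4349 CPM. Barcodes that met the marker condition but had 3 endothelial genes had 4972 CPM. Of 845 kept barcodes with at least 3 marker genes, 102 were left out for their endothelial genes and 11 for *Epcam*, 2 of them for both.

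The label was checked against the genes that led the cells by their ratio to the other kept barcodes, among genes with a UMI in at least 25% of mesothelial cells. Beside *Upk3b* (138-fold), *Lrrn4* (129-fold) and *Msln* (115-fold), the 15 highest included *Muc16* (127-fold), the mucin of serosal surfaces, *Bnc1* (114-fold), a zinc finger factor of keratinized and mesothelial epithelia, *Crb2* (133-fold), an apical polarity protein, *Lrp2* (127-fold), the endocytic receptor megalin, and *Folr1* (109-fold), a folate receptor. The other 7 were *Tm4sf5*, *Fam110c*, *Pcnx2*, *Slurp1*, *Rpp25*, *Lgals2* and *Fras1*, from 99.8-fold to 134-fold. *Calb2*, which encodes calretinin and is used as a mesothelial marker in human tissue, had no UMI in any of the 6 libraries. Known mesothelial genes led the cells, also outside the rule, and the label was kept.

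Markers of other cell types were measured in the same cells. Fibroblast markers summed to 5292, 4146 and 5379 CPM in WT and to 6204, 5519 and 6010 CPM in TNF-Tg, led by *Dcn*, which encodes the proteoglycan decorin. UMIs of at least 3 of 8 fibroblast genes were found in 42, 63 and 44 mesothelial cells of the WT libraries and in 41, 109 and 356 of the TNF-Tg libraries. Fibroblast genes were thus part of the profile in both genotypes. Of myeloid markers, *Ptprc* was at 0 in 5 libraries and at 6.99 CPM in TNF-Tg at 20 weeks. A doublet caller (Scrublet) marked 42 mesothelial cells, 5.72%, against 5.11% of all kept barcodes. By library it marked 4.76%, 12.8% and 0% of the WT and 15.9%, 2.36% and 5.10% of the TNF-Tg mesothelial cells, against 4.66% to 5.57% of the kept barcodes, so the WT 14-week and TNF-Tg 8-week libraries had the highest shares.

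The share of mesothelial cells among kept barcodes was compared first. It was 0.653%, 1.29% and 0.733% in the WT libraries, with 95% Clopper-Pearson intervals of 0.471 to 0.882, 1.02 to 1.61 and 0.546 to 0.962. In the TNF-Tg libraries it was 0.666%, 2.18% and 6.18%, with intervals of 0.485 to 0.893, 1.82 to 2.59 and 5.60 to 6.80. These intervals cover counting error only. At 8 weeks the genotypes lay within each other's intervals, and at 14 and 20 weeks the TNF-Tg library was the higher.

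Over libraries the share was 0.892% ± 0.346 (SD, n = 3) in WT and 3.01% ± 2.85 (SD, n = 3) in TNF-Tg, and the means differed by 2.12 percentage points. The two-sided exact permutation test gave p = 0.3, where the smallest p that 3 against 3 libraries allow is 0.1. Without the TNF-Tg 20-week library the difference was 0.533 percentage points, with an exact p = 0.6, and without the TNF-Tg 8-week library it was 3.29. Among all kept barcodes the TNF-Tg share was above the WT share at each of the 3 ages, with 0.666% against 0.653% at 8 weeks. At 8 weeks the order turned with doublets removed (0.592% in TNF-Tg, 0.656% in WT) and with no endothelial UMI (0.167%, 0.295%). It also turned with at most 5% mitochondrial UMIs, at least 2 marker genes, or thinned barcodes (below). It held with at least 4 marker genes, without *Ptprc* or *Epcam* barcodes, and among barcodes with at most 2 endothelial genes. The TNF-Tg 20-week library set most of the difference in means, and a test of this size cannot tell whether the genotypes differed.

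Depth bears on this share, since a deeper barcode shows more of the marker genes. With every barcode thinned to 2000 UMIs and shallower barcodes left out, the share was 0.736%, 1.48% and 0.684% in WT and 0.648%, 2.03% and 4.25% in TNF-Tg (exact permutation p = 0.4). At 1000 UMIs it was 0.626%, 1.15% and 0.505% in WT and 0.531%, 1.32% and 2.32% in TNF-Tg (exact permutation p = 0.3). The TNF-Tg 20-week library stayed the highest at each depth, with a smaller lead the fewer UMIs were used. Digestion and sorting also set how many mesothelial cells reach a library, and their part was not tested.

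**Figure D1:**
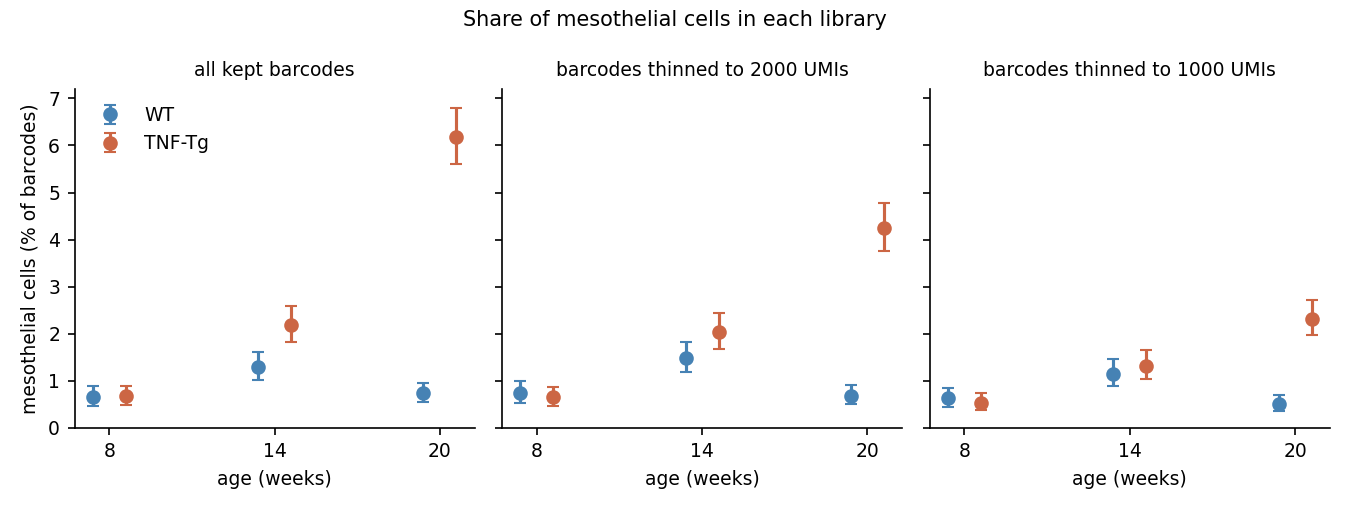
Share of mesothelial cells (percent of barcodes, vertical axis) by age in weeks (horizontal axis) for WT and TNF-Tg, 1 library each, with 95% Clopper-Pearson intervals (counting error only), for all kept barcodes and for barcodes thinned to 2000 or 1000 UMIs. The genotypes lie together at 8 weeks, and TNF-Tg at 20 weeks is the highest in each panel, at 6.18%, 4.25% and 2.32%.

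Gene levels were compared between genotypes on the mesothelial UMIs summed per library, 3 TNF-Tg against 3 WT libraries, by edgeR's quasi-likelihood test with Benjamini-Hochberg adjustment at 0.05. Of 8850 genes tested, 110 were higher in TNF-Tg (1.24%) and 86 lower (0.972%), and the median log2 fold change over all genes was 0.02. At an unadjusted p under 0.05, 792 of the 8850 were higher and 775 lower, the background for such counts in the lists below. The p-values measure the spread among these libraries, in which ages stand as replicates. Each age gave 1 library of each genotype, and with age as a block, which compares the genotypes within ages, the counts were 332 (3.75%) and 370 (4.18%), all 110 and 86 genes among them. Where the blocked fit changes a call or a list's count by over 1.5 times, its value is given beside the result. Without the TNF-Tg 20-week library they were 136 and 106, with 90 and 67 genes shared, so the comparison did not rest on the library that stood apart.

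The calls did rest on the few WT libraries. Without the WT 14-week library no gene passed in either direction by edgeR, with 525 higher and 520 lower genes at an unadjusted p under 0.05, and hence no gene of any list below passed without it. Without the WT 8-week library 8 genes were higher and 2 lower, and without the WT 20-week library 59 and 27. Without the TNF-Tg 8-week library the counts grew to 213 and 208. DESeq2 on all 6 libraries called 168 higher and 171 lower genes, of which 103 and 82 were among the edgeR calls. With the doublets that Scrublet called removed, 62 genes were higher and 44 lower of 8579 tested, and in cells with no endothelial UMI 57 and 68 of 6076. Calls of named genes that ended under either setting are given beside the genes.

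**Figure D2:**
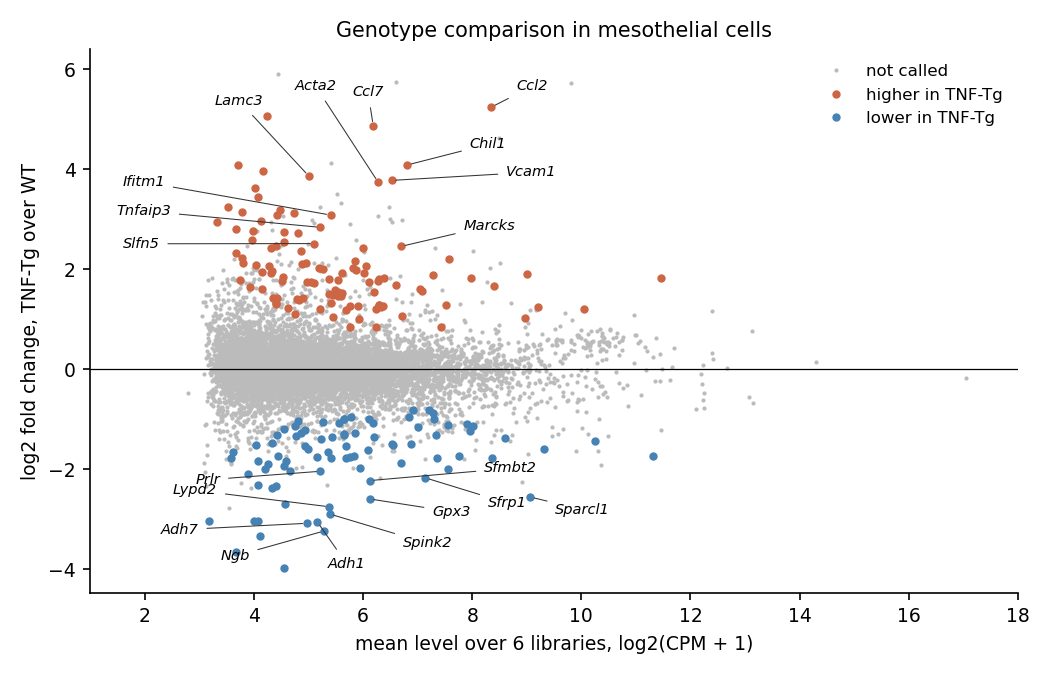
Log2 fold change of TNF-Tg over WT (vertical axis) against the mean level over 6 libraries, log2(CPM + 1) (horizontal axis), for the 8850 genes tested in mesothelial cells. Each point is a gene, red where higher (110) and blue where lower (86) in TNF-Tg at an adjusted p under 0.05. Labels mark the 20 genes of largest change, 10 per direction. They were chosen among called genes with the same direction at every age and a mean of at least 50 CPM in the higher genotype.

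Among called genes with a mean of at least 50 CPM in the higher genotype, the 10 with the largest increase were *Ccl2*, *Ccl7*, *Chil1*, *Lamc3*, *Vcam1*, *Acta2*, *Ifitm1*, *Tnfaip3*, *Slfn5* and *Marcks*. The 10 with the largest decrease were *Ngb*, *Adh7*, *Adh1*, *Spink2*, *Lypd2*, *Gpx3*, *Sparcl1*, *Sfmbt2*, *Sfrp1* and *Prlr*. For all 20 genes the values of the 3 TNF-Tg libraries did not overlap those of the 3 WT libraries. The choice of called genes with the same direction at every age makes such a gap likely, so it adds no support. Of the increases, *Ccl2*, *Ccl7*, *Vcam1* and *Tnfaip3* belong to the list of NF-kB targets described next, and of the decreases *Adh1* and *Adh7* belong to the retinoid list and *Sfrp1* to the Wnt list.

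NF-kB target genes were the list with the most calls. Of 26 genes listed, 18 were tested and 12 were higher in TNF-Tg, against 1.24% of all genes tested, and none was lower. The median log2 fold change was 2.08, against 0.02 over all genes, and 17 of the 18 genes had a positive value. Without the TNF-Tg 20-week library 12 genes were higher, against 136 of 8410 genes, with *Icam1* gained and *Birc3* lost (1.61, adjusted p = 0.0506). The median was then 1.61. With age as a block 15 were higher and none lower, against 3.75% and 4.18% of all genes. With doublets removed 9 of 18 were higher, against 62 of 8579 genes. In cells with no endothelial UMI it was 8 of 14, against 57 of 6076 genes. Without the WT 8-week library 2 were higher, against 8 of 9732 genes, and without the WT 20-week library 5, against 59 of 9705 genes.

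The promoters of 3 NF-kB target genes that rose are shown because a match to the 10-base NF-kB consensus lies close to their start. The stretches run from 130 to 11 bases before the start, 5′ to 3′ on the gene's strand, from RefSeq on GRCm38.p6, and capitals mark the matches. They lie at chr5:90891115-90891234 on the plus strand (*Cxcl1*), chr5:92348900-92349019 on the minus strand (*Cxcl10*) and chr12:55492658-55492777 on the minus strand (*Nfkbia*).
Cxcl1: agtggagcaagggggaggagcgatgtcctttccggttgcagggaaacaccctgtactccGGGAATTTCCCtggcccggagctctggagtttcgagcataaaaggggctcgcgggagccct
Cxcl10: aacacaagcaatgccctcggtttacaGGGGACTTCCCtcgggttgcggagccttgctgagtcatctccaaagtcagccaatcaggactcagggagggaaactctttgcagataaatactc
Nfkbia: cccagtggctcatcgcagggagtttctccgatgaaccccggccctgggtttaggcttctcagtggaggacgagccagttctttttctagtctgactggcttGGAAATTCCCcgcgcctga

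The first matching base lies 71 bases before the start in *Cxcl1*, 104 bases in *Cxcl10* and 29 bases in *Nfkbia*, and the capitals of *Cxcl1* and *Cxcl10* each hold 2 overlapping matches. The consensus was searched on both strands in windows of 300 bases, from 250 before to 50 after the start. It was found in 8.46% of 32851 windows, and in 9.55% of 27025 genes. Of the 26 listed NF-kB targets 19 had a window, and a match was found in 6 of the 7 called genes with a window and in 7 of the 12 others. A match describes the letters of the promoter and does not show that a factor was bound in these cells.

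The chemokine genes of the list carried its largest changes. *Ccl2* (chr11:82035571-82037453), whose product draws monocytes, was at 0, 17.3 and 32.4 CPM in WT and at 251, 222 and 1427 CPM in TNF-Tg (a log2 fold change of 5.25, SE 0.95, adjusted p = 0.0272). Its neighbour *Ccl7*, another monocyte chemokine, was at 3.69, 7.09 and 2.49 CPM in WT and at 92.1, 37.1 and 288 CPM in TNF-Tg (4.88, SE 0.81, adjusted p = 0.0229). Both rose, with TNF-Tg above WT at every age, and both were highest in TNF-Tg at 20 weeks, without which the log2 fold changes were 3.84 and 3.64 (adjusted p = 0.00229 and 0.00269). Neither passed with doublets removed (5.04, adjusted p = 0.0604, and 4.57, adjusted p = 0.0735).

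*Cxcl1* (chr5:90891241-90893115), a neutrophil chemokine whose promoter is shown above, was at 2.46, 0 and 1.25 CPM in WT and at 23, 20.3 and 60.3 CPM in TNF-Tg (a log2 fold change of 5.06, SE 0.77, adjusted p = 0.0163). *Cxcl16* encodes a membrane-bound chemokine for CXCR6-bearing lymphocytes and was at 73.9, 52 and 77.3 CPM in WT and at 256, 282 and 393 CPM in TNF-Tg (2.22, SE 0.24, adjusted p = 0.00489). *Cxcl10* (chr5:92346638-92348889), a chemokine for CXCR3-bearing T cells, was at 91.1, 136 and 88.5 CPM in WT and at 235, 255 and 288 CPM in TNF-Tg (1.30, SE 0.22, adjusted p = 0.0247). All 3 genes rose, and in TNF-Tg each was already above the whole WT range at 8 weeks. The value of *Cxcl1* was 4.24 without the TNF-Tg 20-week library (adjusted p = 0.00656), and *Cxcl10* did not pass in cells with at most 5% mitochondrial UMIs (adjusted p = 0.0532).

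Adhesion molecules differed in their call. *Vcam1* (chr3:116109949-116129688), which binds integrins of leukocytes, was at 13.5, 7.09 and 18.7 CPM in WT and at 83.6, 117 and 305 CPM in TNF-Tg (a log2 fold change of 3.78, SE 0.53, adjusted p = 0.0135). *Icam1*, the ligand of the leukocyte integrin LFA-1, was at 101, 111 and 89.8 CPM in WT and at 184, 158 and 148 CPM in TNF-Tg (0.69, adjusted p = 0.0845). *Vcam1* rose, whereas *Icam1* did not pass the test although its genotypes did not overlap, and it passed without the TNF-Tg 20-week library (0.77, adjusted p = 0.0366) and with age as a block (0.70, adjusted p = 0.0391). *Vcam1* was at 3.07 without that library (adjusted p = 0.000624).

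Subunits and inhibitors of NF-kB formed another part of the list. *Relb* (chr7:19606217-19629438) and *Nfkb2* encode the subunits of the noncanonical arm. *Relb* was at 18.5, 20.5 and 23.7 CPM in WT and at 80, 90.5 and 108 CPM in TNF-Tg (a log2 fold change of 2.17, SE 0.22, adjusted p = 0.00421). *Nfkb2* was at 28.3, 15 and 28.7 CPM in WT and at 69.1, 108 and 96.4 CPM in TNF-Tg (1.99, adjusted p = 0.0139). The canonical subunit genes *Nfkb1* and *Rela* both had a log2 fold change of 0.66 and did not pass (adjusted p = 0.172 and 0.135), which does not show that they differed from *Relb*.

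*Nfkbia* (chr12:55489410-55492647) encodes the inhibitor IκBα, which NF-kB itself induces, and was at 183, 171 and 136 CPM in WT and at 401, 558 and 580 CPM in TNF-Tg (a log2 fold change of 1.66, SE 0.23, adjusted p = 0.0122). *Tnfaip3*, which encodes the ubiquitin-editing enzyme A20, was at 13.5, 5.52 and 9.98 CPM in WT and at 26.7, 58.4 and 103 CPM in TNF-Tg (2.84, SE 0.50, adjusted p = 0.0272). *Bcl3*, an atypical member of the inhibitor family, rose by 2.38 and *Birc3*, an inhibitor of apoptosis, by 1.75 on the log2 scale, the latter not passing with doublets removed (adjusted p = 0.0671), with no endothelial UMI (0.0501) or with sums thinned to equal depth (0.0746). Inhibitors of the pathway thus rose beside its chemokines. Of the remaining tested members, *Sod2* (1.28, adjusted p = 0.0639) and *Tnfaip2* (3.07, adjusted p = 0.167) did not pass but did with age as a block (adjusted p = 0.015 and 6.13e-05), *Tnfaip2* was at 1.15 without the TNF-Tg 20-week library (adjusted p = 0.524), and *Csf1* had the single negative value of the list, -0.39.

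**Figure D3:**
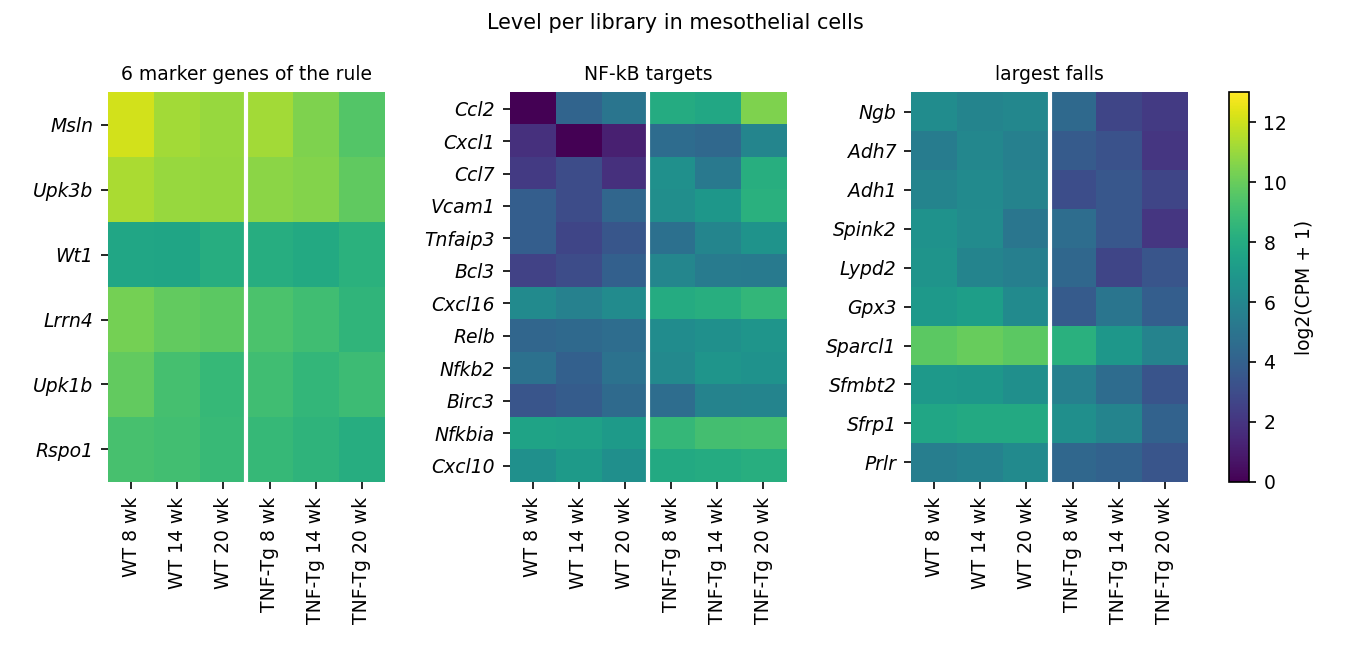
Level in each of the 6 libraries, log2(CPM + 1) as colour, for the 6 marker genes of the rule (left), the 12 NF-kB targets called higher in TNF-Tg (middle) and the 10 largest falls (right). In the middle panel every TNF-Tg library lies above every WT library, and in the right panel every one lies below. The genes of these panels were chosen by their change.

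The TNF receptors and their adaptors did not pass the test. Of 9 genes listed 7 were tested, and none was called by edgeR with all libraries. At an unadjusted p under 0.05, 3 were higher, against 792 of all 8850 genes. DESeq2 called 2 higher (168 of all genes), as did the fit with age as a block (3.75% of all genes). Without the TNF-Tg 20-week library 2 were higher, against 136 of 8410 genes. The median was 0.48, and all 7 values were positive. *Tnfrsf1a* was at 103, 90.6 and 89.8 CPM in WT and at 178, 113 and 131 CPM in TNF-Tg (adjusted p = 0.177). *Tnfrsf1b* was at 14.8, 12.6 and 28.7 CPM in WT and at 47.2, 48.3 and 38.4 CPM in TNF-Tg (1.29, adjusted p = 0.0602), and neither receptor's values overlapped between genotypes. *Tnfrsf1b* passed without the TNF-Tg 20-week library (1.43, adjusted p = 0.0321) and with age as a block (1.29, adjusted p = 0.0172). The mouse gene *Tnf* was at 0 in the WT libraries and at 0, 0.508 and 0.285 CPM in TNF-Tg, so mesothelial cells held next to no UMIs of it in either genotype. Transcripts of the human transgene were not analysed here.

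Acute phase and complement genes had values of both signs, 7 positive and 6 negative. Of 22 listed 13 were tested, with 1 higher, none lower (1.24% and 0.972% of all genes) and a median of 0.23, and with age as a block 3 were higher and 3 lower (3.75% and 4.18%). *Chil1* (chr1:134182176-134190181), which encodes a secreted chitinase-like protein of inflamed tissue, was at 19.7, 7.88 and 11.2 CPM in WT and at 151, 327 and 149 CPM in TNF-Tg (a log2 fold change of 4.09, SE 0.44, adjusted p = 0.00489). *C3*, the central component of complement, was at 5490, 6714 and 7811 CPM in WT and at 12359, 12981 and 8503 CPM in TNF-Tg (0.77, adjusted p = 0.24). *C4b* was at 2082, 1930 and 1723 CPM in WT and at 1144, 484 and 241 CPM in TNF-Tg (-1.62, adjusted p = 0.107). The genotypes did not overlap for *C3* or *C4b*, and neither gene passed with all libraries, but without the TNF-Tg 20-week library *C3* was higher (0.95, adjusted p = 0.0102) and *C4b* lower (-1.23, adjusted p = 0.0371). *C4b* was also lower with age as a block (-1.89, adjusted p = 0.00186).

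*Hp*, which encodes the haemoglobin-binding protein haptoglobin, had no UMI in the WT libraries and was at 0, 2.03 and 186 CPM in TNF-Tg. Over the group this is at least 128-fold above the level of 3 UMIs that a count of 0 allows, and nearly all of it lay in TNF-Tg at 20 weeks. *Saa3* and *Hp* did not pass the filter on low counts, since few of their UMIs were found outside that library, and they were not in the test.

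Interferon-stimulated and MHC class I genes had 3 calls among 29 tested of 30 listed, none lower, and a median of 0.52, with 26 positive values, against 1.24% higher of all genes. With the block 7 were higher, against 3.75% of all genes. Without the TNF-Tg 20-week library 5 were higher, against 136 of 8410 genes, and without the TNF-Tg 8-week library 5, against 213 of 9709. The count was 2 without the WT 20-week library (59 of 9705 genes). It was 1 without the TNF-Tg 14-week (82 of 8490) or the WT 8-week library (8 of 9732). *Ifitm1* (chr7:140967221-140969825), an interferon-induced membrane protein, was at 9.85, 7.09 and 9.98 CPM in WT and at 59.4, 97.1 and 64.8 CPM in TNF-Tg (a log2 fold change of 3.09, SE 0.31, adjusted p = 0.00421). *Irf7*, the transcription factor of the type I interferon response, was at 12.3, 29.9 and 21.2 CPM in WT and at 65.4, 77.2 and 55.1 CPM in TNF-Tg (1.59, SE 0.30, adjusted p = 0.0314). *Psmb8*, a subunit of the immunoproteasome, was at 56.6, 41.8 and 108 CPM in WT and at 157, 231 and 212 CPM in TNF-Tg (1.58, SE 0.32, adjusted p = 0.0393). These 3 genes rose, and at 8 weeks they were already outside the WT range. With doublets removed *Ifitm1* alone of the list passed, *Irf7* (adjusted p = 0.0513) and *Psmb8* (0.0647) not, and *Psmb8* did not pass with no endothelial UMI either (0.0696).

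*B2m* and *H2-K1*, genes of the class I molecules themselves, did not pass but did with age as a block (adjusted p = 0.00924 and 0.0465). *B2m*, the light chain of class I molecules, was at 886, 1142 and 1818 CPM in WT and at 1961, 2932 and 3214 CPM in TNF-Tg (1.09, adjusted p = 0.121). *H2-K1* was at 936, 929 and 1358 CPM in WT and at 1569, 2031 and 1988 CPM in TNF-Tg (0.81, adjusted p = 0.138). Neither gene's genotypes overlapped, and in WT both were highest at 20 weeks. Of 7 MHC class II genes 5 were tested and none was called by edgeR or DESeq2 with all libraries, with 1 higher at an unadjusted p under 0.05. Their median was 0.65, which was 0.09 without the TNF-Tg 20-week and 1.91 without the WT 20-week library. In the latter fit edgeR called 1 higher, against 59 of 9705 genes. *Cd74*, the invariant chain, was at 2.46, 18.9 and 135 CPM in WT and at 86, 332 and 374 CPM in TNF-Tg (2.42, adjusted p = 0.182), with overlap, and it was the 1 class II gene higher with age as a block (2.92, adjusted p = 0.000755).

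Genes of mesothelial identity outside the rule were mostly lower in value, and how many were called depended on the treatment of age and on the libraries used. Of 28 listed 26 were tested, 1 was lower and none higher, and the median was -0.63 with 22 negative values. The background share of lower genes was 0.972%. At an unadjusted p under 0.05, 9 were lower and 2 higher, against 775 and 792 of all 8850 genes. DESeq2 called 5 lower, against 171 of all genes. The fit with age as a block called 9 lower and none higher, against 4.18% and 3.75%. Without the TNF-Tg 20-week library the median was -0.33, with 3 lower and 1 higher, against 106 and 136 of 8410 genes. Without the TNF-Tg 8-week library it was -0.84, with 6 lower and none higher, against 208 and 213 of 9709 genes. With any 1 WT library left out no gene of the list passed.

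*Gpm6a*, a neuronal-type membrane glycoprotein that is also a mesothelial marker, was at 1977, 1658 and 1705 CPM in WT and at 819, 706 and 454 CPM in TNF-Tg, and it fell (a log2 fold change of -1.42, SE 0.27, adjusted p = 0.0314). *Krt7* was at 1387, 585 and 388 CPM in WT and at 385, 206 and 146 CPM in TNF-Tg (-1.68, adjusted p = 0.104). *Krt19* was at 1805, 1125 and 843 CPM in WT and at 1725, 1103 and 794 CPM in TNF-Tg (-0.05, adjusted p = 0.961). The keratin genes therefore differed in their values, with *Krt19* nearly equal between genotypes at each age. *Slpi*, a secreted protease inhibitor of epithelia, was at 2727, 1672 and 1778 CPM in WT and at 1179, 335 and 145 CPM in TNF-Tg (-1.91, adjusted p = 0.14). With age as a block *Krt7* (adjusted p = 0.000398) and *Slpi* (adjusted p = 0.000924) were lower.

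Of 14 glycocalyx and lubrication genes 11 were tested, and none was called by edgeR with all libraries. At an unadjusted p under 0.05, 3 were higher and 3 lower, against 792 and 775 of all 8850 genes. DESeq2 called 1 higher and 2 lower, against 168 and 171 of all genes. The fit with age as a block also called 1 and 2, against 3.75% and 4.18%. Without the TNF-Tg 20-week library 1 was higher and 2 were lower, against 136 and 106 of 8410 genes. The median was -0.18, and -0.34 to 0.35 without each library. *Muc16* was at 872, 962 and 743 CPM in WT and at 689, 989 and 340 CPM in TNF-Tg (adjusted p = 0.676). *Prg4*, which encodes the lubricant lubricin, was at 4.92, 13.4 and 15 CPM in WT and at 109, 39.1 and 17.1 CPM in TNF-Tg (2.13, adjusted p = 0.14), and passed without the TNF-Tg 20-week library (2.61, adjusted p = 0.0092) and with age as a block (1.95, adjusted p = 0.0202). *Has1*, a hyaluronan synthase, was at 78.8, 125 and 52.4 CPM in WT and at 173, 68.1 and 9.42 CPM in TNF-Tg (adjusted p = 0.938). In TNF-Tg, both *Prg4* and *Has1* were highest at 8 weeks and lowest at 20 weeks.

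Mesenchymal transition and matrix genes had 2 increases among 22 tested of 31 listed, none lower, and a median of 0.42, against 1.24% higher and 0.972% lower of all genes. Their median was 0.096 to 0.965 without each library. The blocked fit had 8 higher and 2 lower, against 3.75% and 4.18% of all genes. *Acta2*, smooth muscle actin, was at 17.2, 8.67 and 7.48 CPM in WT and at 41.2, 276 and 107 CPM in TNF-Tg (a log2 fold change of 3.75, SE 0.68, adjusted p = 0.0272). *Zeb2*, a transcription factor known to repress epithelial genes, was at 23.4, 13.4 and 18.7 CPM in WT and at 64.2, 40.1 and 84.5 CPM in TNF-Tg (1.82, SE 0.32, adjusted p = 0.0268). In cells with no endothelial UMI neither passed (*Acta2* 3.85, adjusted p = 0.0728, and *Zeb2* 1.42, adjusted p = 0.255), and *Zeb2* did not pass with doublets removed (adjusted p = 0.0522). *Acta2* passed there at 2.28 (adjusted p = 0.0164), and without the TNF-Tg 14-week library at 2.82 (adjusted p = 0.0255). *Col1a1* was at 475, 274 and 294 CPM in WT and at 916, 543 and 930 CPM in TNF-Tg (1.20, adjusted p = 0.0595), so it had no overlap and did not pass, but it did without the TNF-Tg 20-week library (1.08, adjusted p = 0.0452) and with age as a block (1.20, adjusted p = 0.00349). *Vim*, *Sparc* and *Col3a1* had overlapping genotypes and log2 fold changes of -0.05, 0.12 and -0.49.

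Smooth muscle markers were measured beside *Acta2*. The 7 markers summed to 174, 79.6 and 115 CPM in WT and to 262, 778 and 609 CPM in TNF-Tg, with *Tagln* at 234 and 190 CPM in TNF-Tg at 14 and 20 weeks. Of the 4 tested *Acta2* and *Mustn1* rose, against 1.24% higher of all genes, with a median of 2.30. All 4 were higher with age as a block, against 3.75%, and *Mustn1* did not pass with doublets removed (0.99, adjusted p = 0.16). The defining markers *Myh11* and *Cnn1* were at 29 and 22.4 CPM in TNF-Tg at 14 weeks, and *Cnn1* was at 0 in every WT library and in TNF-Tg at 8 weeks. The part of smooth muscle RNA in the values of *Acta2* and *Tagln* was not tested.

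Basement membrane genes had a median of -0.09, with 3 higher and none lower of 24 tested of 26 listed (1.24% and 0.972% of all genes), and the median was -0.21 to 0.04 without each library. With age as a block 4 were higher and 5 lower, against 3.75% and 4.18% of all genes. *Hspg2*, which encodes the heparan sulfate proteoglycan perlecan, was at 86.2, 35.5 and 78.6 CPM in WT and at 142, 181 and 265 CPM in TNF-Tg (a log2 fold change of 1.60, SE 0.33, adjusted p = 0.0413). *Col18a1*, a collagen and the precursor of endostatin, was at 24.6, 31.5 and 51.1 CPM in WT and at 61.8, 116 and 173 CPM in TNF-Tg (1.76, SE 0.38, adjusted p = 0.0459). *Nid2*, the linker protein nidogen 2, was at 43.1, 43.3 and 51.1 CPM in WT and at 88.4, 81.8 and 158 CPM in TNF-Tg (1.28, SE 0.27, adjusted p = 0.0418). These 3 rose in the test of all cells. With doublets removed none of the 24 passed, *Hspg2* being at 1.65 (adjusted p = 0.0839), *Nid2* at 1.38 (adjusted p = 0.0863) and *Col18a1* not passing either (adjusted p = 0.145). *Col18a1* did not pass with no endothelial UMI (adjusted p = 0.0537), nor *Nid2* with cells thinned to 2000 UMIs (0.0955).

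Of the type IV collagens, *Col4a4* was at 405, 350 and 307 CPM in WT and at 166, 111 and 38.5 CPM in TNF-Tg (-1.79, adjusted p = 0.0598), and *Col4a3*, its partner in the same heterotrimer, had a log2 fold change of -1.96 (adjusted p = 0.0845). *Col4a1* was at 201, 173 and 158 CPM in WT and at 216, 205 and 218 CPM in TNF-Tg (0.27, adjusted p = 0.455). None of the 3 passed with all libraries. *Col4a4* (-1.35, adjusted p = 0.00674) and *Col4a3* (-1.38, adjusted p = 0.0456) did so without the TNF-Tg 20-week library, and with age as a block (-1.97, adjusted p = 0.000581, and -1.99, adjusted p = 0.000924). *Lamc3*, a laminin chain named here among the 10 largest increases, was at 1.23, 2.36 and 9.98 CPM in WT and at 15.7, 33 and 124 CPM in TNF-Tg (a log2 fold change of 3.87, SE 0.86, adjusted p = 0.0497), and it rose close to the threshold, by 2.63 without the TNF-Tg 20-week library (adjusted p = 0.0347) and by 3.14 with no endothelial UMI (adjusted p = 0.0263). It did not pass in cells without a *Ptprc* UMI (adjusted p = 0.0504) or with at most 5% mitochondrial UMIs (0.0526).

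BMP and TGF-beta genes had 2 decreases among 36 tested of 45 listed, none higher, and a median of -0.24, against 0.972% lower and 1.24% higher of all genes. The fit with age as a block had 6 lower and 3 higher, against 4.18% and 3.75%. *Smad9*, a signal transducer of the BMP receptors, was at 36.9, 41.8 and 26.2 CPM in WT and at 10.9, 12.2 and 6.7 CPM in TNF-Tg (a log2 fold change of -1.93, SE 0.32, adjusted p = 0.0242). *Id4*, of the Id family of BMP-responsive inhibitors, was at 44.3, 36.2 and 26.2 CPM in WT and at 13.3, 8.64 and 9.56 CPM in TNF-Tg (-1.83, SE 0.28, adjusted p = 0.0163). Both fell with no overlap. The receptor gene *Bmpr1a* was at 208, 198 and 206 CPM in WT and at 119, 128 and 121 CPM in TNF-Tg (-0.72, adjusted p = 0.0554).

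*Bmpr2*, the type II receptor, was at 132, 187 and 163 CPM in WT and at 116, 117 and 97.7 CPM in TNF-Tg (-0.54, adjusted p = 0.186). The secreted BMP antagonist gene *Chrdl1* was at 138, 139 and 132 CPM in WT and at 71.5, 48.8 and 20.8 CPM in TNF-Tg (-1.63, adjusted p = 0.0534). None of *Bmpr1a*, *Bmpr2* and *Chrdl1* passed with all libraries, and for all 3 the genotypes did not overlap. *Ltbp2*, a latent TGF-beta binding family member of the matrix, was at 0, 0 and 12.5 CPM in WT and at 24.2, 62 and 478 CPM in TNF-Tg (5.74, adjusted p = 0.0562). *Ltbp2* (3.70, adjusted p = 0.0237) and *Chrdl1* (-1.20, adjusted p = 0.00872) passed without the TNF-Tg 20-week library. All but *Bmpr2* of these 4 genes passed with age as a block (adjusted p = 0.0303 for *Bmpr1a*, 0.00124 for *Chrdl1* and 7.25e-06 for *Ltbp2*).

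Wnt and hedgehog genes had a median of -0.63 over 21 tested of 26 listed, with 2 lower and none higher (0.972% and 1.24% of all genes), or 5 lower and 1 higher with age as a block (4.18% and 3.75% of all genes). Without the WT 20-week library 2 were higher and none lower, against 59 and 27 of 9705 genes, at a median of -0.66. The 2 decreases with all libraries were of secreted Wnt antagonists. *Sfrp1* was at 206, 239 and 233 CPM in WT and at 88.4, 57.4 and 16.1 CPM in TNF-Tg (a log2 fold change of -2.17, SE 0.48, adjusted p = 0.0491). *Sfrp2* was at 309, 347 and 403 CPM in WT and at 145, 137 and 195 CPM in TNF-Tg (-1.14, SE 0.21, adjusted p = 0.0272). *Sfrp1* did not pass with doublets removed (adjusted p = 0.066) or in cells without a *Ptprc* UMI (0.0501), nor *Sfrp2* with no endothelial UMI (0.0543). The Wnt receptor gene *Fzd7* (-0.94, adjusted p = 0.0545) and the hedgehog transducer gene *Smo* (-0.78, adjusted p = 0.0696) did not pass but did with age as a block (adjusted p = 0.0179 and 0.0228).

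Retinoid genes had 2 decreases among 11 tested of 18 listed, against 0.972% lower of all genes, and a median of -0.08. *Adh1* (chr3:138260991-138290698) and *Adh7* encode alcohol dehydrogenases that oxidize retinol. *Adh1* was at 57.9, 72.5 and 54.9 CPM in WT and at 7.27, 10.7 and 5.56 CPM in TNF-Tg (a log2 fold change of -3.05, SE 0.30, adjusted p = 0.00421). *Adh7* was at 43.1, 64.6 and 49.9 CPM in WT and at 12.1, 8.64 and 3.14 CPM in TNF-Tg (-3.08, SE 0.43, adjusted p = 0.0135). Both fell at every age, the lowest WT value of each being above 3 times its highest TNF-Tg value, and *Adh7* was at -2.39 without the TNF-Tg 20-week library (adjusted p = 0.00269). *Aldh1a2*, the retinoic acid synthase typical of mesothelium, was at 728, 775 and 656 CPM in WT and at 636, 503 and 205 CPM in TNF-Tg (-0.68, adjusted p = 0.357).

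Other large decreases lay outside the lists. *Sparcl1* (chr5:104079111-104113733), a matricellular protein, was at 854, 1020 and 852 CPM in WT and at 308, 115 and 55.1 CPM in TNF-Tg (a log2 fold change of -2.55, SE 0.51, adjusted p = 0.0355). *Gpx3*, the secreted glutathione peroxidase, was at 124, 155 and 73.6 CPM in WT and at 12.1, 32 and 13.7 CPM in TNF-Tg (-2.59, SE 0.40, adjusted p = 0.0163). *Ngb*, the globin neuroglobin, was at 78.8, 56.7 and 63.6 CPM in WT and at 20.6, 5.59 and 3.57 CPM in TNF-Tg (-3.23, SE 0.50, adjusted p = 0.0163). In TNF-Tg *Sparcl1* and *Ngb* were lower at each later age, while *Gpx3* was not. *Spink2*, a protease inhibitor, and *Lypd2* fell by 2.89 and 2.75 on the log2 scale. Without TNF-Tg at 20 weeks *Ngb* was at -2.57 and *Spink2* at -2.13 (adjusted p = 0.00543 and 0.0207). With doublets removed *Sparcl1* (adjusted p = 0.0884), *Spink2* (0.0766) and *Sfmbt2* (0.0895) did not pass, nor did *Spink2* by DESeq2 (0.0742).

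Of growth factors and cytokines, 2 of 16 tested of 26 listed were higher and none lower, against 1.24% and 0.972% of all genes, with a median of 0.03 that was -0.17 to 0.52 without each library. With age as a block 5 were higher and 1 lower, against 3.75% and 4.18%, and with doublets removed none of 14 tested passed, *Il34* among them (adjusted p = 0.066). *Cxcl12*, a chemokine for CXCR4-bearing cells, was at 0, 3.15 and 3.74 CPM in WT and at 17, 15.8 and 51.6 CPM in TNF-Tg (a log2 fold change of 3.64, SE 0.72, adjusted p = 0.0355). *Il34*, a ligand of the macrophage receptor CSF1R, was at 0, 1.58 and 7.48 CPM in WT and at 14.5, 19.3 and 51.9 CPM in TNF-Tg (3.46, SE 0.75, adjusted p = 0.0474). Both rose from low levels, and without the TNF-Tg 20-week library *Cxcl12* passed (2.72, adjusted p = 0.0406) and *Il34* did not (2.62, adjusted p = 0.0722). Without the WT 20-week library *Il34* was at 4.94 and did not pass either (adjusted p = 0.0628). *Csf1*, the other ligand of that receptor, was at 278, 311 and 247 CPM in WT and at 228, 241 and 169 CPM in TNF-Tg (-0.39, adjusted p = 0.379).

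None of 8 IGF binding protein and receptor genes was called by edgeR or DESeq2 with all libraries, while *Igfbp4* was higher with age as a block. The count of higher genes was 1 without the WT 20-week library, against 59 of 9705 genes. At an unadjusted p under 0.05, 3 were higher, against 792 of all 8850 genes. Their median was 0.49 with all libraries and 0.05 to 0.56 without each library. It was 0.12 with doublets removed and -0.18 in cells with no endothelial UMI. *Igfbp5* was at 13952, 10320 and 9222 CPM in WT and at 10307, 8243 and 2370 CPM in TNF-Tg (-0.67, adjusted p = 0.52). It was lower in TNF-Tg at each age, by the most at 20 weeks, and the 8-week TNF-Tg value lay within the WT range. Of 17 cell cycle genes 4 were tested and none was called by edgeR or DESeq2, with 1 higher at an unadjusted p under 0.05 and a median of 0.85. Cells with at least 3 of 8 cycling genes numbered 0 in each WT library and 1, 1 and 6 in TNF-Tg, 8 of 734 in all. None of 9 tested genes of cell cycle inhibition and p53 was called by edgeR or DESeq2, with 1 lower at an unadjusted p under 0.05 and a median of -0.44, and *Cdkn2b* was higher with age as a block.

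Genes that respond to tissue dissociation were measured because the cells came from digested lung. Of 20 tested 2 were higher and none lower, against 1.24% and 0.972% of all genes, or 6 and none with age as a block, against 3.75% and 4.18%. The median was 0.45, and 0.09 to 0.78 without each library. Without the TNF-Tg 20-week library 3 were higher, against 136 of 8410 genes. The list summed to 3949, 3523 and 2661 CPM in WT and to 6290, 3627 and 3215 CPM in TNF-Tg. *Junb*, an AP-1 subunit, was at 133, 122 and 74.8 CPM in WT and at 533, 287 and 357 CPM in TNF-Tg (a log2 fold change of 1.83, SE 0.28, adjusted p = 0.0163). *Nr4a1*, an orphan nuclear receptor, rose as well (1.95, SE 0.36, adjusted p = 0.0307), but did not pass with doublets removed (adjusted p = 0.0584) or in cells without a *Ptprc* UMI (0.0501). The list summed highest in TNF-Tg at 8 weeks. The part of dissociation in the NF-kB list was not tested.

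Endothelial markers that the rule did not use had a median of -0.64 over 8 tested of 12, with *Kdr* lower and none higher (0.972% and 1.24% of all genes), and *Kdr* and *Aqp1* were lower with age as a block (4.18%). Without the TNF-Tg 20-week library 2 of these markers were lower, against 106 of 8410 genes. With doublets removed none of 7 tested passed, *Kdr* being at -1.72 (adjusted p = 0.0671). *Kdr*, the receptor VEGFR2, was at 635, 490 and 392 CPM in WT and at 228, 148 and 74 CPM in TNF-Tg (a log2 fold change of -1.77, SE 0.37, adjusted p = 0.0414). The 12 markers summed to 3132, 2840 and 2220 CPM in WT and to 1460, 1312 and 519 CPM in TNF-Tg, most of it *Aqp1*, a water channel that mesothelium also carries (2391, 2129 and 1651 CPM against 1094, 982 and 357 CPM).

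Fibroblast markers had a median of 0.74 over 9 tested of 14 listed, -0.04 to 1.14 without each library. It was -0.03 with doublets removed and -0.11 in cells with no endothelial UMI. None was called by edgeR with all libraries. The counts were 1 higher and 3 lower without the TNF-Tg 20-week library, against 136 and 106 of 8410 genes. At an unadjusted p under 0.05, 4 were higher and 2 lower, against 792 and 775 of all 8850 genes. DESeq2 called 2 higher and 2 lower, against 168 and 171 of all genes. The fit with age as a block had *Pdgfra*, *Lum*, *Col1a1* and *Col1a2* higher and *Col14a1* and *Npnt* lower, against 3.75% and 4.18% of all genes. The part of fibroblast RNA in the matrix genes was not tested.

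Myeloid markers summed to 17.2, 18.1 and 20.0 CPM in WT and to 35.1, 52.3 and 134 CPM in TNF-Tg, of which *Lyz2* was at 45.4 CPM in TNF-Tg at 20 weeks and at 0 in WT. *Csf1r*, the 1 myeloid marker tested, did not pass with all libraries (a log2 fold change of 1.16). It did pass with age as a block and without the TNF-Tg 20-week library (1.51). The highest sums of lymphoid markers (53.6 CPM, led by *Igkc*) and of epithelial markers (59.5 CPM, led by *Scgb1a1*) were in TNF-Tg at 20 and at 14 weeks. With the 9 cells that had a *Ptprc* UMI left out, an alternative added after seeing the data, 103 genes were higher and 80 lower. The genotype counts were thus nearly as large without these cells.

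Mesothelial cells were then clustered to describe how they vary among themselves, which gave 6 clusters. The clusters and their genes come from the same values, so these are descriptions with no test. The largest cluster had 190 cells, 189 of them from TNF-Tg at 20 weeks and 1 from TNF-Tg at 8 weeks. It held 48.2% of the 392 mesothelial cells of that library. The third cluster, of 139 cells, held 33, 56 and 29 cells of the WT libraries and 15, 2 and 4 of TNF-Tg, and thus most WT cells. Since the largest cluster is nearly all of 1 library, it may be that library and not a type, and it was left unnamed.

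The largest cluster differed from the other 203 mesothelial cells of the same library in several genes. *Saa3* (chr7:46711998-46715700), which encodes an acute phase serum amyloid protein, was at 19702 CPM in it and at 1491 CPM in the other cells. *Igfbp5* was at 197 CPM against 5299 CPM, *Msln* at 257 against 1351 CPM, *C3* at 4480 against 13927 CPM and *Krt19* at 433 against 1280 CPM. *Col1a1* was at 1293 against 441 CPM, *Fn1*, the matrix glycoprotein fibronectin, at 1513 against 354 CPM, and *Mdk*, the growth factor midkine, at 606 against 68.7 CPM. These genes were picked after their values were seen and stand for no list. *Wt1*, a marker of the rule, was at 347 CPM in the cluster and at 282 CPM in the other cells.

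NF-kB targets and the genes *Hp*, *Chil1* and *Ifitm1*, which are not in that list, did not follow 1 pattern across this split. *Ccl2* was at 2187 CPM in the cluster and at 404 CPM in the other cells, and the haptoglobin gene *Hp* at 315 against 11.4 CPM. *Vcam1* was at 311 against 297 CPM, *Relb* at 111 against 105 CPM and *Nfkbia* at 570 against 593 CPM. *Chil1* was at 23.4 against 317 CPM and *Ifitm1* at 29.1 against 113 CPM. *Ccl2* and *Hp* were high in the cluster, *Vcam1*, *Relb* and *Nfkbia* about equal, and *Chil1* and *Ifitm1* low. Of these 7 genes all but *Hp* were called in the genotype comparison, and the 6 remained called without the TNF-Tg 20-week library, where 1 cell of this cluster was left.

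The cells of the cluster had a median of 20343 UMIs, against 14608 for the other 203, and 53.4% against 71.9% of them had all 6 marker genes. Scrublet marked 13 and 7 of them. Without the cluster the share of mesothelial cells in the library was 3.30%, still above the 2.18% of TNF-Tg at 14 weeks.

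*Saa3* UMIs were found in 0, 0 and 2 mesothelial cells of the WT libraries and in 2, 13 and 244 of the TNF-Tg libraries, or 62.2% of the cells in TNF-Tg at 20 weeks. In endothelial cells of that library, taken as the background, 11.2% of cells had a UMI, at a median depth of 9668 UMIs against 17198 in mesothelial cells. In the fibroblasts of that library it was 21.9%, at a median of 11972.5 UMIs. In TNF-Tg at 14 weeks 10.2% of mesothelial cells had a UMI, against 1.66% of endothelial cells and 17.8% of fibroblasts. These fibroblasts had a median of 12146 UMIs, against 14098 in the mesothelial cells. In TNF-Tg at 8 weeks 26 of 216 fibroblasts and 2 of 44 mesothelial cells had a *Saa3* UMI. Within TNF-Tg, mesothelial cells thus had the higher share than fibroblasts at 20 weeks only. The level in mesothelial cells was 0, 0 and 2.49 CPM in WT against 3.63, 51.3 and 11947 CPM in TNF-Tg. Of these cells 116, all in TNF-Tg at 20 weeks, had at least 10000 CPM.

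**Figure D4:**
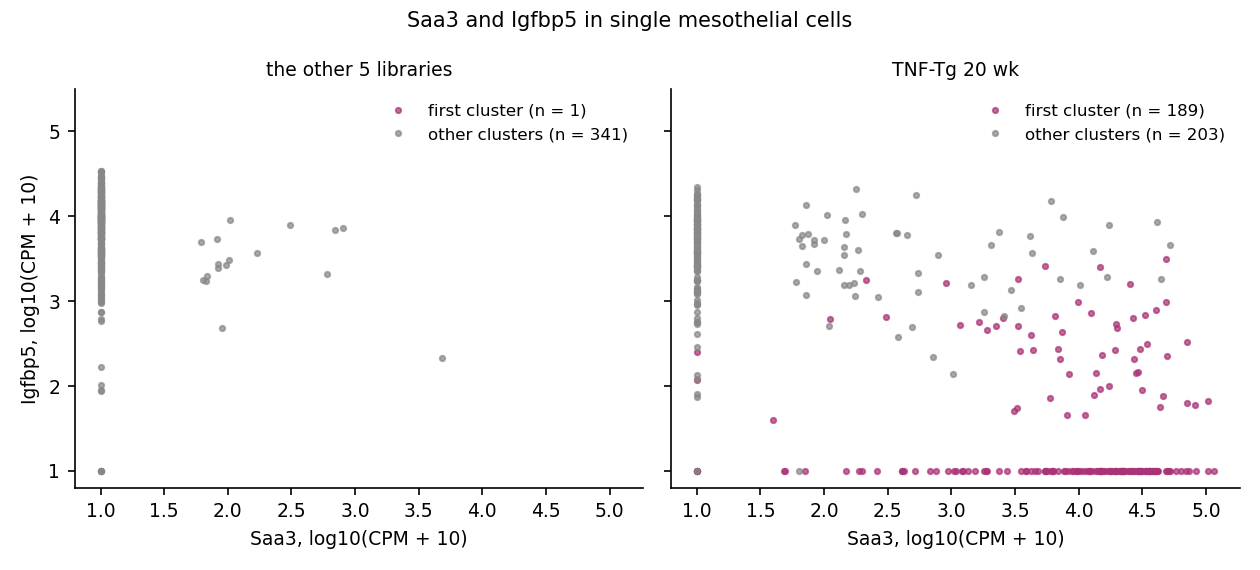
*Igfbp5* (vertical axis) against *Saa3* (horizontal axis) in single mesothelial cells, both as log10(CPM + 10), for the other 5 libraries (left) and for TNF-Tg at 20 weeks (right), where values of 1 are cells with no UMI. Most of the 189 cells of the largest cluster at right lie at high *Saa3* and low or no *Igfbp5*, the 1 at left has no UMI of either gene, and the other cells lie mostly at high *Igfbp5*.

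Whether the genotype difference in mesothelial cells differed from that in other cells of the same libraries was tested as an interaction of cell type and genotype with the library as a block. The cells compared were 2498 fibroblasts and 30067 endothelial cells, chosen by their own marker genes. Each was a pool of subtypes. For TNF-Tg lungs the study reported fewer Col13+ fibroblasts, more Col14+ fibroblasts and fewer capillary cells of its gCAP2 subtype. The part of such shifts in the differences below was not tested. Against fibroblasts 123 of 12326 genes had a more positive change in mesothelial cells (0.998%) and 168 a more negative one (1.36%). Against endothelial cells the counts were 308 (2.11%) and 300 (2.05%) of 14629 genes.

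Against fibroblasts, NF-kB targets had a median difference of 0.31 over 23 tested, beside 0.00 over all genes, with 1 called higher and 1 lower, beside 0.998% and 1.36% of all genes. Against endothelial cells the median was 0.52 over 25 tested, beside -0.02 over all genes, with 2 called higher and 1 lower, beside 2.11% and 2.05%. Most NF-kB targets were thus not shown to change more in mesothelial cells than in the other cells. *Ccl2* in fibroblasts was at 19.8, 128 and 354 CPM in WT and at 349, 839 and 387 CPM in TNF-Tg, and the difference in change of 3.09 on the log2 scale did not pass (adjusted p = 0.0979), while without the TNF-Tg 20-week library it did (2.06, adjusted p = 0.0106). The difference also passed in cells with no endothelial UMI (5.06, adjusted p = 0.0422). *Relb* was not called either, with differences of 0.85 (adjusted p = 0.0871) against fibroblasts and 0.61 (adjusted p = 0.174) against endothelial cells.

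*Vcam1* was an exception against fibroblasts. It was at 291, 285 and 233 CPM in WT fibroblasts and at 307, 397 and 381 CPM in TNF-Tg fibroblasts, and its change in mesothelial cells was larger by 3.14 on the log2 scale (adjusted p = 0.0115). In WT it was thus at lower CPM in mesothelial cells than in fibroblasts, and in TNF-Tg at 20 weeks the levels were of the same order. *Tmem119*, a membrane protein known from osteoblasts and microglia, went opposite ways in value in mesothelial cells and in the pooled fibroblasts. It was at 39.4, 62.2 and 97.3 CPM in WT against 263, 270 and 200 CPM in TNF-Tg mesothelial cells, but at 180, 136 and 93.4 CPM in WT against 77.7, 57.6 and 64.6 CPM in TNF-Tg fibroblasts (difference 2.89, adjusted p = 0.0115).

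*Lamc3* and *Wnt4* also had a more positive change in mesothelial cells than in fibroblasts. *Lamc3* was at 33.4, 36.3 and 28 CPM in WT fibroblasts and at 27.1, 12.5 and 13.8 CPM in TNF-Tg fibroblasts (difference 4.60, adjusted p = 0.0403), and the difference did not pass with doublets removed (4.60, adjusted p = 0.0644). *Wnt4*, a Wnt ligand, was at 17.2, 26.8 and 113 CPM in WT against 108, 65 and 95.4 CPM in TNF-Tg mesothelial cells, and at 59.7, 56.4 and 59.4 CPM in WT against 21.8, 7.14 and 5.99 CPM in TNF-Tg fibroblasts (difference 3.58, adjusted p = 0.0174). In mesothelial cells *Wnt4* overlapped between genotypes, and its difference came with the lower values in TNF-Tg fibroblasts. *Col4a4* had the opposite difference, -4.06 (adjusted p = 0.00933), with 7.95, 6.27 and 6.79 CPM in WT against 24.6, 25.7 and 35.8 CPM in TNF-Tg fibroblasts.

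Against endothelial cells, *Ifitm1* had the largest positive difference among the genes named, 5.16 (adjusted p = 4.37e-05). It was at 9.85, 9.38 and 8.32 CPM in WT and at 1.85, 2.1 and 2.42 CPM in TNF-Tg endothelial cells, the reverse of its order in mesothelial cells. *Sparcl1* was at 207, 205 and 233 CPM in WT and at 236, 554 and 733 CPM in TNF-Tg endothelial cells (difference -4.00, adjusted p = 0.0172). *Prnp*, which encodes the prion protein, was at 245, 215 and 238 CPM in WT against 172, 145 and 116 CPM in TNF-Tg mesothelial cells, and at 7.3, 8.68 and 10.9 CPM in WT against 91.1, 107 and 133 CPM in TNF-Tg endothelial cells (-4.33, adjusted p = 4.37e-05). For these 3 genes the 2 cell types moved in opposite directions in value.

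Among the lists, interferon-stimulated and MHC class I genes had a median difference of 1.15 over 30 tested against endothelial cells, with 11 called higher and none lower, beside 2.11% and 2.05% of all genes. Basement membrane genes had a median of -0.85 over 26 tested, with 1 higher and 7 lower. Against fibroblasts, genes of mesothelial identity had a median of -1.33 over 27 tested, with 4 lower and none higher, and dissociation genes one of 0.88 over 20 tested, with 9 higher and none lower, beside 0.998% higher and 1.36% lower of all genes. The 10 mesothelial genes named above summed to 65.2 CPM in the other kept barcodes, against 4349 CPM in mesothelial cells. The identity values in fibroblasts may thus rest on low levels, background RNA in them was not tested, and no conclusion is drawn from that list. The genotype groups of endothelial cells and fibroblasts come from the same libraries as the mesothelial cells, with the same pooled mice and sort.

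**Figure D5:**
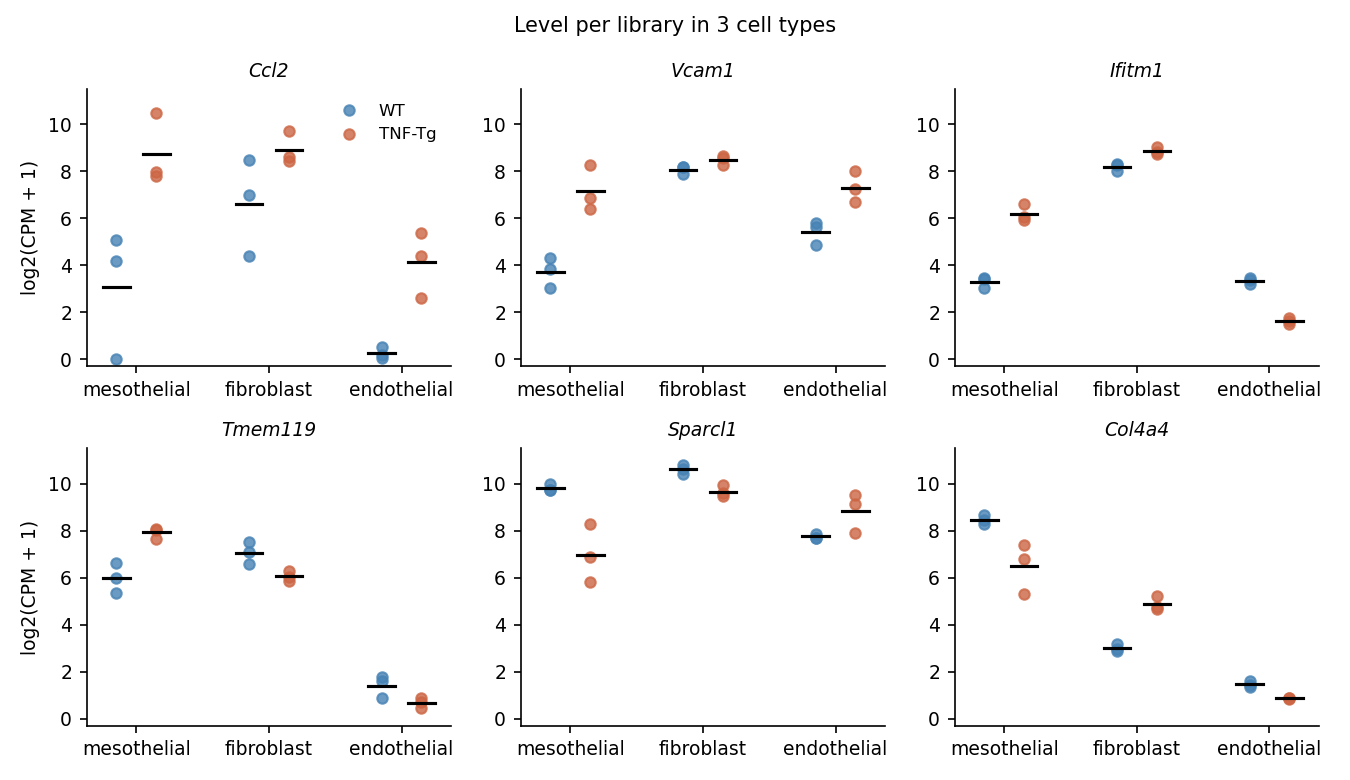
Level per library, log2(CPM + 1) (vertical axis), of 6 genes in mesothelial cells, fibroblasts and endothelial cells (horizontal axis), with WT in blue and TNF-Tg in red. Points are single libraries and lines are means over 3 libraries. In value, *Tmem119* is higher in TNF-Tg in mesothelial cells, *Ifitm1* is lower in TNF-Tg in endothelial cells, and *Col4a4* is higher in TNF-Tg in fibroblasts.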

How the data were processed

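Female TNF-Tg and WT lungs (3 to 5 mice pooled per library) were sorted as 7-AAD-, CD45- and CD326- cells and captured with 10x 3′ chemistry. The deposited files hold counts, which the authors made with Cell Ranger as whole UMIs per gene (32285 genes) and barcode on mm10. The labels give version 5.0.0, and file headers give 5.0.0 at 8 weeks and 6.0.1 at 14 and 20 weeks. No cell annotation was used. Total UMIs per library were 39574391, 33680696 and 39839916 in WT and 69082440, 64475410 and 72655387 in TNF-Tg.

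UMIs of member cells were summed per library and tested with edgeR 4.0.16 (R 4.3.3; filterByExpr, TMM, quasi-likelihood F test, Benjamini-Hochberg over all genes tested, 0.05), and with DESeq2 1.42.0 as an alternative. SE is the absolute log2 fold change over the square root of F. Rule genes were left out of the counts of calls. The share was compared by an exact permutation test (scipy 1.17.1). Members were clustered with scanpy 1.11.5 (1500 variable genes, 20 principal components, Leiden resolution 0.6). Doublets called by Scrublet were kept. Positions are from GENCODE vM21 and promoters from RefSeq.

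Fibroblasts had UMIs of at least 3 of *Pdgfra*, *Col1a1*, *Col1a2*, *Dcn*, *Col13a1*, *Col14a1*, *Inmt* and *Tcf21*, and endothelial cells of at least 4 of the 5 endothelial genes, both with fewer than 2 marker genes and no *Epcam* or *Ptprc* UMI.

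The members and the 23 gene lists were chosen with earlier results of these data known. Genes were named by rule: the genes of the membership rule, the 15 with the highest ratio, the 10 called genes with the largest change each way (at least 50 CPM in the higher genotype), up to 4 called genes per list (at least 20 CPM) beside defining members, and the 5 largest differences each way per interaction. The main test and the share test took the libraries as unpaired. Only the fit with age as a block took libraries of 1 age as pairs, since their labels share the age and call the WT mice littermates. Deviations from the genotype means over 8850 genes correlated at 0.172, 0.105 and 0.204 within the 3 ages, and at -0.241 to 0.0866 between ages. The deviations of a genotype cancel out over its libraries, so these correlations depend on each other. Alternatives were another normalization, filters, memberships, depths, age as a block and leaving out each library.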

Additional observations from a re-analysis of the deposited data

Results flagged for a closer look

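The 20 differences between cell types below were picked because the test of the difference itself, edgeR's interaction of cell type and genotype with the library as a block, passed after Benjamini-Hochberg adjustment. Each value is the log2 fold change of TNF-Tg over WT in mesothelial cells minus that in the other cell type. The part of shifts among subtypes of the other cell type was not tested.

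Against fibroblasts the 5 largest positive differences were *Lamc3* at 4.60, *Angptl4*, a secreted inhibitor of lipoprotein lipase, at 3.77, *Wnt4* at 3.58, *Vcam1* at 3.14 and *Tmem119* at 2.89. The 5 largest negative ones were *Spink2* at -5.83, *Bst1* at -5.66, *Lypd2* at -5.54, *Tspan15* at -4.75 and *Col4a4* at -4.06. *Angptl4* was at 17.2, 15 and 4.99 CPM in WT and at 87.2, 14.7 and 178 CPM in TNF-Tg mesothelial cells, with overlap. In WT fibroblasts *Bst1* was at 0, 0 and 0.566 CPM and *Spink2* at 0.204, 0 and 0 CPM, so the sizes fitted for *Spink2*, *Bst1* and *Lypd2* depend on the prior count. *Tspan15* was at 210, 112 and 88.5 CPM in WT and at 94.5, 38.1 and 15.3 CPM in TNF-Tg mesothelial cells, with overlap, and at 1.83, 0.99 and 0.849 CPM in WT against 11.2, 10.2 and 6.73 CPM in TNF-Tg fibroblasts.

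Against endothelial cells the 5 largest positive differences were *Ifitm1* at 5.16, *Vegfc*, a lymphatic growth factor, at 4.95, *Aqp5*, a water channel, at 4.51, *Lamc3* at 4.11 and *Tmem119* at 3.43. The 5 largest negative ones were *Spink2* at -5.09, *Prnp* at -4.33, *Zbtb7c* at -4.12, *Sparcl1* at -4.00 and *Akr1b8* at -3.85. *Vegfc* was at 8.62, 9.45 and 8.73 CPM in WT and at 17, 17.8 and 220 CPM in TNF-Tg mesothelial cells, and at 72.7, 69.6 and 61.1 CPM in WT against 15.9, 7.67 and 17.4 CPM in TNF-Tg endothelial cells. *Zbtb7c* was at 65.2, 40.2 and 61.1 CPM in WT and at 90.9, 77.2 and 57.8 CPM in TNF-Tg mesothelial cells, with overlap, and at 0.978, 1.02 and 1.44 CPM in WT against 19.9, 28.4 and 32 CPM in TNF-Tg endothelial cells. Without the TNF-Tg 20-week library all 20 differences passed, and those against endothelial cells were 3.71 for *Vegfc*, 5.41 for *Aqp5*, 3.38 for *Lamc3*, -3.58 for *Spink2*, -2.99 for *Sparcl1* and -3.13 for *Akr1b8*. Against fibroblasts they were 3.53 for *Lamc3*, 2.60 for *Angptl4*, -4.62 for *Bst1*, -6.24 for *Lypd2* and -3.21 for *Col4a4*, and the other 9 moved by less than 1.5 times. With doublets removed 17 passed, without *Lamc3* (adjusted p = 0.0644) and *Angptl4* (0.0573) against fibroblasts and *Spink2* (0.0661) against endothelial cells. With sums thinned to equal depth 14 passed, without *Spink2* (0.206), *Bst1* (0.128) and *Lypd2* (0.0546) against fibroblasts and *Aqp5* (0.337), *Tmem119* (0.123) and *Spink2* (0.37) against endothelial cells. Without the WT 8-week library 7 passed and without the WT 14-week library 8.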

How the results depend on the processing

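Counts of called genes moved by more than 1.5 times under several settings, of which some also changed the number of genes tested (8850). The higher genes (110) numbered 168 with DESeq2, 62 with Scrublet doublets removed, 332 with age as a block, 667 with no low count filter (18041 tested), 57 with cells thinned to 2000 UMIs (2047 tested, of which 88 were lower) and 57 in cells with no endothelial UMI (6076 tested). The lower genes (86) numbered 171 with DESeq2, 44 with doublets removed, 370 with age as a block and 459 with no filter. Among alternatives added after seeing the data, cells with all 6 marker genes gave 235 higher and 226 lower, and cells and sums thinned gave 33 and 43 of 1326 tested. With 1 library left out at a time there were 0 to 213 higher and 0 to 208 lower genes. The genes whose change differed from fibroblasts (291) numbered 192 with doublets removed, 1000 with no filter, 189 with sums thinned, and 9 to 682 without each library. Those that differed from endothelial cells (608) numbered 1032 with no filter, 376 with sums thinned, and 153 to 1233 without each library. The share difference was 0.533 to 3.29 percentage points without each library. The cause of these changes was not tested. Of 51 genes described as called in the genotype comparison, none reversed in 894 values and 187 values no longer passed, while 20 values were over 1.5 times larger in size and 14 smaller. With age as a block all 51 passed, with doublets removed 28 of 49, and with no endothelial UMI 34 of 42. The calls kept were 0 without the WT 14-week library, 6 without the WT 8-week, 19 without the WT 20-week, 31 without the TNF-Tg 14-week, 49 without the TNF-Tg 20-week and 51 without the TNF-Tg 8-week library. Of 34 genes described as not called, 4 with log2 fold changes near 0 changed sign in 15 of 624 values, and 126 values passed, among them those of 19 genes with age as a block. *Krt19* was 0.030 with all 6 marker genes, 0.0215 with cells and sums thinned, 0.0506 with cells thinned, and -0.39 to 0.29 without each library. *Has1* was 0.0206 with sums thinned and -1.24 to 0.42 without each library. *Vim* was 0.0621 with cells and sums thinned, 0.15 with cells thinned, 0.0471 with no endothelial UMI and -0.14 to 0.0346 without each library, and *Sparc* was -0.13 to 0.73 without each library. Of the 20 named differences between cell types none reversed in 260 values, and 41 values no longer passed. The labels give no replicate numbers, and the fit with age as a block is the paired analysis.

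The smallest libraries held 42 and 44 mesothelial cells, and genes with few UMIs were left out by the filter on low counts. *Saa3* and *Hp* were left out by it too, since nearly all of their UMIs lay in 1 library. With 3 libraries a genotype, ages as replicates and 1 pool each, age, pool and library cannot be told apart. Marker detection depends on depth, and the depth of the other barcodes differed between genotypes, so shares are not those of the tissue.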

Other observations

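Several abundant called genes that the rule had not named were chosen after their values were seen. *Lgals1*, which encodes the glycan-binding protein galectin-1, was at 737, 1016 and 1983 CPM in WT and at 4177, 4405 and 4649 CPM in TNF-Tg (a log2 fold change of 1.83, SE 0.36, adjusted p = 0.0355). *Tmem176b* and *Tmem176a*, neighbouring genes of related membrane proteins, rose by 1.21 and 1.25 on the log2 scale (adjusted p = 0.034 and 0.0272). *Fmo2*, a flavin monooxygenase of the lung that oxidizes xenobiotics, was at 3497, 4360 and 3903 CPM in WT and at 1320, 1413 and 785 CPM in TNF-Tg (-1.73, SE 0.30, adjusted p = 0.0266). *Gsta3*, a glutathione transferase, was at 883, 1165 and 818 CPM in WT and at 395, 370 and 188 CPM in TNF-Tg (-1.58, SE 0.31, adjusted p = 0.034). *Fmo2* and *Gsta3* were both at less than their WT levels at every age, and the matrix genes *Fbln5* (-1.73) and *Ogn* (-1.37) fell too. With doublets removed *Lgals1* (adjusted p = 0.0947), *Tmem176b* (0.0568), *Gsta3* (0.0568) and *Fbln5* (0.059) did not pass, nor did *Gsta3* (0.0943) and *Fbln5* (0.063) with no endothelial UMI.

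*Cxcl5*, which encodes a neutrophil chemokine, did not pass the filter on low counts. It had no UMI in the WT libraries and was at 78.7, 3.56 and 34.8 CPM in TNF-Tg, from 65, 7 and 244 UMIs. Pooled over the TNF-Tg libraries this is at least 31-fold above the 3 UMIs over the group that a count of 0 allows. *Slurp1*, a secreted protein among the 15 leading genes, was at 2681, 1010 and 631 CPM in WT and at 1145, 202 and 67.3 CPM in TNF-Tg, with overlap.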
